A study of Mus musculus with 12 samples.

Results

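Mouse pancreatic cells that had been kept in culture were compared with pancreatic cells taken straight from the organ, on Affymetrix arrays hybridised with biotin-labelled total RNA. The cultured side had 6 arrays. 3 came from acinar-to-ductal metaplasia (ADM) cultures, held in 3-dimensional collagen for 7 days with 50 ng/ml TGF-alpha, an EGF receptor ligand, and 3 from low-passage tumor cells grown in standard medium. The fresh side also had 6 arrays, 3 of adult and 3 of embryonic acinar cells, isolated by collagen digestion and used at once for RNA. All 12 samples carry the strain label C57Bl6/J wildtype, and the labels give neither an age nor, for the tumor cells, a driver mutation. A gene was reported when the lowest array of one side exceeded the highest array of the other by at least 1 on the log2 scale, a separation called the gap here. Of 22180 genes, 312 had such a gap: 202 (0.911%) were higher in culture and 110 (0.496%) were lower. These levels chose the genes, so the values of the chosen genes between the sides are given as a description, with no test.

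Acinar cells make up most of the exocrine pancreas. They synthesise digestive enzymes on a dense endoplasmic reticulum (ER), store them in zymogen granules and release them when cholecystokinin or another secretagogue binds. In collagen culture, and under EGF receptor signalling, they lose the granules and take on duct-like features, the change called ADM, which in the pancreas is held to precede neoplasia. Plated or embedded cells also meet a stiff matrix, serum and growth factors, conditions known to engage integrins, the YAP and TEAD transcriptional regulators, MAP kinases and the antioxidant factor NRF2.

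The sides differ in more than culture. ADM and tumor cells are also less acinar than the fresh cells, ADM was given TGF-alpha and the tumor cells are neoplastic, and in this design these differences cannot be told apart. Beside the gap, a test was run with limma over all 12 arrays, in which a gene counted as called when it differed by at least 1 on the log2 scale with an adjusted p (Benjamini-Hochberg) below 0.05. Each side rests on 2 kinds of cells, and this test sees only the spread between arrays of a kind. A limma fit to the 4 group means, 2 against 2, called 0 genes in either direction, with 2321 genes at an unadjusted p under 0.05. The labels do not say whether arrays of a group came from separate animals or cultures, and the 3 tumor arrays share an identifier in their descriptions and may be 1 line. Arrays of a group correlated at 0.967 to 0.991 over all genes, the 2 kinds of a side at 0.891 to 0.938 and arrays of opposite sides at 0.817 to 0.930. Defining markers were read on each group: the median log2 signal of 29 acinar enzymes was 11.68 to 12.49 on the fresh arrays, 7.79 to 9.71 on ADM and 3.49 to 3.75 on tumor arrays. The last range lies around 3.62, the upper level of olfactory and related receptor genes, taken here as background. Neither side was of 1 sex: Xist, the X-inactivation RNA, had a mean log2 signal of 10.31 ± 0.05 in adult, 9.02 ± 0.33 in embryonic, 9.92 ± 0.09 in ADM and 3.85 ± 0.70 in tumor cells (SD, n = 3), and the Y-linked Eif2s3y had 3.93 ± 0.45, 6.14 ± 0.33, 3.47 ± 0.06 and 7.00 ± 0.26 in the same order.

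**Figure D1:**
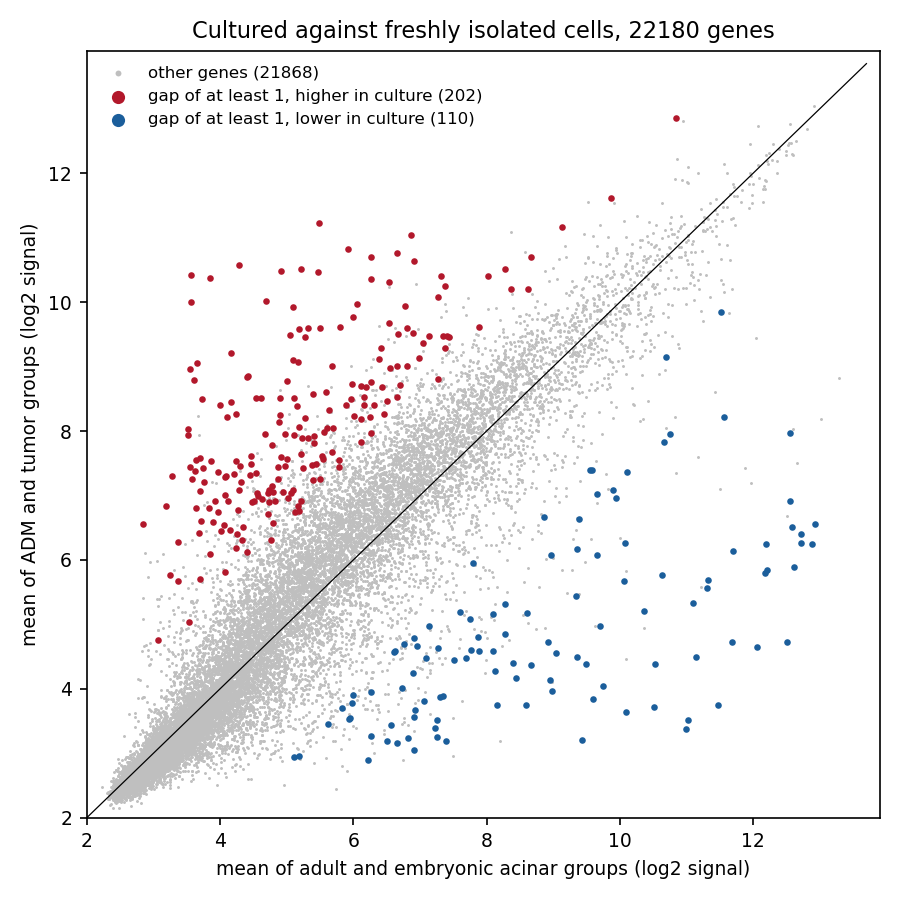
Each point is 1 of 22180 genes, at the mean log2 signal of the fresh groups (x) and of the cultured groups (y), with the line of equal signal in black. The 202 genes with a gap of at least 1 that were higher in culture (red) and the 110 that were lower (blue) lie on opposite sides of the line, and the lower genes reach further from it, with a median difference of -3.48 against 2.69.

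Over the 202 genes higher in culture the cultured-minus-fresh difference had a median of 2.69 and ran from 1.51 to 6.87 on the log2 scale. Over the 110 lower genes the median was -3.48, and the sizes ran from 1.55 to 7.79. The median over all genes was -0.04. Gaps of at least 2 were present in 49 higher and 43 lower genes, and gaps of at least 4 in 5 higher and 12 lower genes. Protein-coding genes made up 200 of the higher and 106 of the lower genes, or 99.0% and 96.4%, against 85.5% of all genes. Among the smallest gaps inside the rule were those of Map3k2, Sytl2 and Itgav (each 1.00, higher) and of Aass and C1qtnf12 (both 1.00, lower). Among the nearest outside were Msn (0.99) and Cd2ap (0.98), higher, and Fkbp11 (0.99) and Nat8f1 (0.96), lower.

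**Figure D2:**
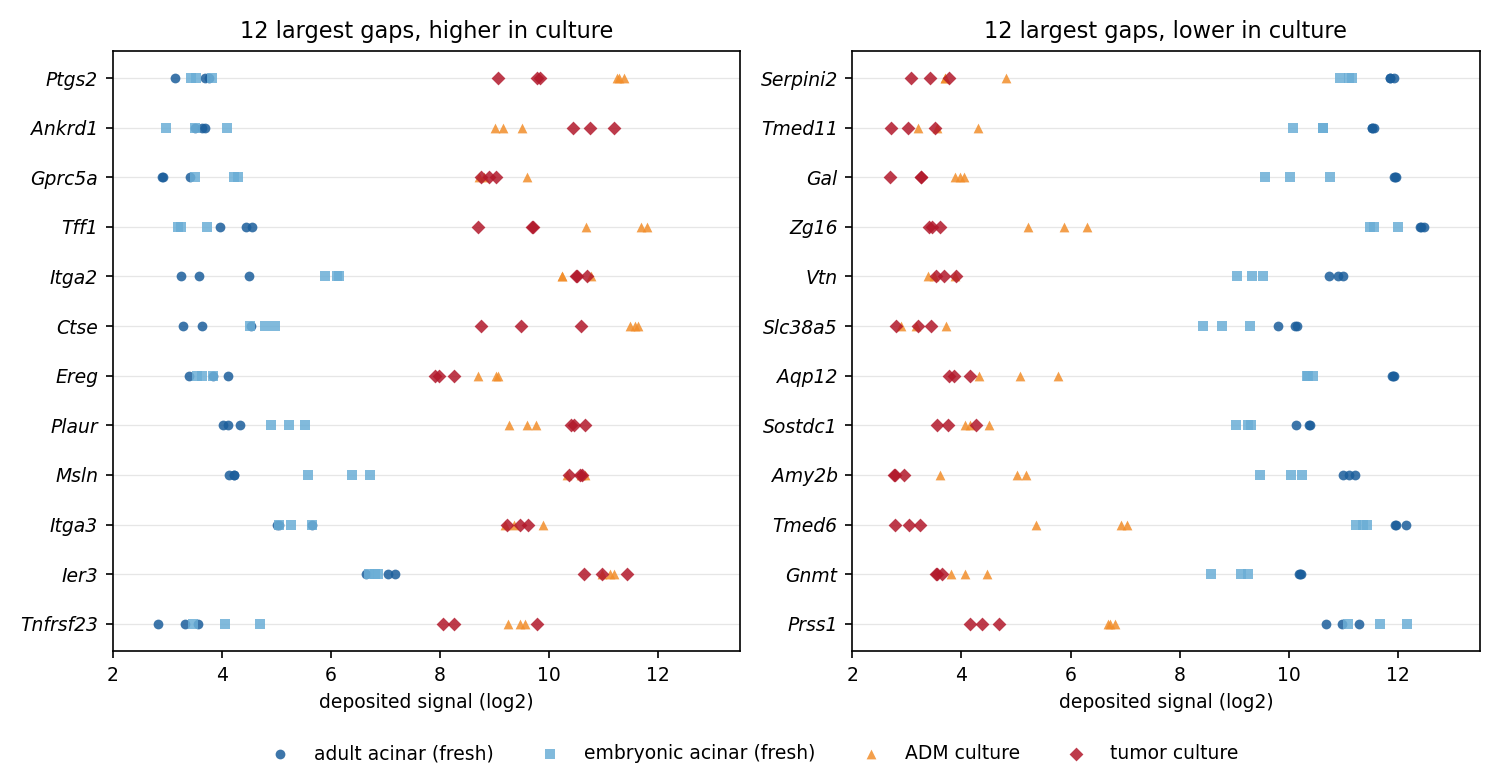
Log2 signal of the 12 genes with the largest gap in each direction, transcripts without a gene name left out, with 12 points per gene, 1 per array, coloured by group. No cultured array overlaps a fresh array for any of the 24 genes, and the empty stretch between the sides is 5.25 wide for Ptgs2 and 6.11 wide for Serpini2.

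Acinar enzyme genes were lower in culture. Of 29 acinar enzyme and granule genes measured, 16 had a gap and were lower, 0 were higher, 28 were called lower by limma (4.86% of all genes were) and the list's median difference was -5.64. Zg16, a lectin of the zymogen granule, had a mean of 12.43 ± 0.03 in adult, 11.68 ± 0.28 in embryonic, 5.81 ± 0.54 in ADM and 3.49 ± 0.10 in tumor cells (SD, n = 3). All 6 fresh arrays were thus above 11 and all 6 cultured arrays under 7, a difference of -7.41 ± 0.16 (SE from the fit). Here and for every difference below, the SE comes from 6 arrays a side in groups of 3. This SE holds only the spread between arrays of a kind, not the spread between the kinds of a side. For Zg16 the SD was 1.31 over the 6 cultured and 0.45 over the 6 fresh arrays. Amy2b, a pancreatic amylase that digests starch, was at 9.48 to 11.21 on fresh and 2.77 to 5.19 on cultured arrays, with tumor cells at the lower end. Prss1, a trypsinogen, was at 10.69 to 12.16 on fresh, 6.69 to 6.81 on ADM and 4.15 to 4.69 on tumor arrays. Cel, the bile salt-activated lipase, was at 12.40 to 12.97 on fresh, 9.10 to 9.66 on ADM and 3.18 to 3.71 on tumor arrays.

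ADM cells still carried enzyme signal. 25 of the 29 enzyme genes were called lower in tumor than in ADM cells (5.06% of all genes were), with a median tumor-minus-ADM difference of -4.61. Cpa1, a carboxypeptidase, had a gap of only 0.13 and so is outside the rule: ADM arrays read 12.70, 12.34 and 12.19, just under the embryonic arrays at 12.83 to 12.97, while tumor arrays read 3.71 to 4.36. The 4 genes with a gap that fell most from ADM to tumor cells were Cpb1, another carboxypeptidase, by 6.86, Pnliprp1, a lipase-related protein, by 6.47, Spink1, the granule's trypsin inhibitor, by 6.31, and Klk1, tissue kallikrein, by 6.15, with adjusted p of 1.04e-07, 2.04e-07, 1.56e-07 and 1.41e-05 (limma, Benjamini-Hochberg over all genes, as below). ADM arrays differed among themselves in these genes: Klk1 read 10.82, 8.97 and 7.10, and Cpb1 10.83, 9.79 and 8.40. Without ADM replicate 1, the highest of the 3, 20 rather than 16 enzyme genes had a gap, and leaving out an array can only keep or widen a gap. Cpb1 and Pnliprp1, with gaps of 1.08 and 1.02, lost theirs under quantile normalization and under centring on housekeeping genes, where 14 and 12 enzyme genes had one.

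Proteins that acinar cells secrete besides enzymes had some of the widest gaps. Serpini2, a pancreatic serine protease inhibitor, read 11.93, 11.86 and 11.85 in adult, 11.16, 10.93 and 11.11 in embryonic, 4.82, 3.70 and 3.70 in ADM and 3.42, 3.77 and 3.08 in tumor cells. Its gap of 6.11 was the largest of the 22180 genes, and the mean difference of -7.72 ± 0.19 equals 212-fold. Gal, the neuropeptide galanin, was at 9.56 to 11.96 on fresh and 2.69 to 4.04 on cultured arrays. Vtn, the adhesive plasma protein vitronectin, had a mean of 10.88 ± 0.14 in adult and 9.31 ± 0.24 in embryonic cells (SD, n = 3) and was at 3.39 to 3.90 on cultured arrays. For Vtn and Serpini2 the cultured groups did not differ by the test (tumor minus ADM 0.12, adjusted p = 0.781, and -0.65, adjusted p = 0.134). Apart from the ADM array of Serpini2 at 4.82, these arrays lay around background, where the test cannot show whether the groups are alike. Of the 20 genes in the list of acinar hormones and plasma proteins, 3 had a gap and were lower, 1 was higher and 12 were called lower. The higher one was Angptl4, a lipoprotein lipase inhibitor, with a gap of 1.03 that was lost under cyclic loess and housekeeping centring.

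The ER machinery was lower in part. Of 43 genes for folding, translocation and degradation in the ER, 8 had a gap and were lower, 23 were called lower, 0 were called higher and 32 had all cultured arrays under all fresh arrays (4.32% of all genes did). Tmed11 and Tmed6, cargo receptors of the p24 family, led: Tmed11 was at 10.07 to 11.56 on fresh and 2.71 to 4.30 on cultured arrays, and Tmed6 was at 11.23 to 12.15 on fresh, 5.37 to 7.03 on ADM and 2.79 to 3.25 on tumor arrays. Ero1b, the ER oxidase that drives disulfide formation, read 11.37 to 11.53 in adult, 9.50 to 10.14 in embryonic, 6.06 to 6.64 in ADM and 5.07 to 5.51 in tumor cells. Sdf2l1, a chaperone partner, was lower by a smaller step, -2.99 ± 0.14, and the tumor-minus-ADM difference was -0.20 and was not called. The 4 remaining genes, Derl3, Edem1, Edem2 and Sel1l, act in ER-associated degradation, and their differences ran from -2.15 ± 0.13 for Edem1 to -4.27 ± 0.26 for Derl3. The list's median per array was 9.55 to 10.51 on fresh and 8.70 to 8.91 on cultured arrays, and the median difference was -1.02.

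Secretagogue receptors and granule release followed. 6 of 32 genes had a gap, all lower in culture. Cckar, the cholecystokinin receptor, was at 11.17 to 12.17 on fresh, 8.57 to 8.93 on ADM and 3.07 to 3.97 on tumor arrays; ADM lay between the fresh and the tumor cells. Grpr, the receptor of gastrin-releasing peptide, read 8.75 to 9.20 in adult, 5.22 to 6.05 in embryonic, 3.72 to 4.04 in ADM and 3.61 to 4.07 in tumor cells, and adult exceeded embryonic cells by 3.21 (adjusted p = 4e-07). Its gap was lost under quantile normalization and housekeeping centring. The small GTPases Rab3d, Rab27a and Rab26, which guide granules to the membrane, differed by -2.88 ± 0.18, -2.17 ± 0.16 and -2.64 ± 0.14. The sixth member, Gnmt, is not an exocytosis protein but glycine N-methyltransferase, which uses S-adenosylmethionine, and was at 8.58 to 10.23 on fresh and 3.53 to 4.47 on cultured arrays.

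2 of 12 acinar transcription factors had a gap, and 7 were called lower. Bhlha15 (Mist1), a helix-loop-helix factor that scales the secretory apparatus, had a mean of 10.05 ± 0.07 in adult, 7.87 ± 0.33 in embryonic, 4.16 ± 0.19 in ADM and 4.13 ± 0.27 in tumor cells (SD, n = 3), with 7.56 the lowest fresh and 4.44 the highest cultured array. It was as low in ADM as in tumor cells (difference -0.03, adjusted p = 0.964) and already lower in embryonic than in adult cells by 2.18 (adjusted p = 2.91e-06). Rbpjl, the acinar subunit of the PTF1 complex, was at 8.21 to 9.62 on fresh, 4.71 to 5.21 on ADM and 3.87 to 4.42 on tumor arrays. Their partners did not separate by 1. Ptf1a, the helix-loop-helix subunit of PTF1, read 7.02 to 8.92 on fresh, 5.21 to 6.78 on ADM and 3.41 to 3.70 on tumor arrays (gap 0.24, or over 1 without ADM replicate 1 or without embryonic replicate 3). Nr5a2, a nuclear receptor that acts with PTF1, was at 8.02 to 8.11 on ADM arrays against 8.66 to 9.78 on fresh arrays (gap 0.55) and 3.11 to 3.89 on tumor arrays.

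The helix-loop-helix factors among these, Bhlha15 and Ptf1a, bind E-boxes. The 250 bases before the start of the genes with a gap were therefore searched for CACCTG on either strand (CAGGTG on the other). Sequences were from RefSeq, build GRCm38.p6. A promoter was at hand for 87 of the 110 lower genes, 154 of the 202 higher genes and 16918 of all 22180. CACCTG was present in 37 of 87 promoters of lower genes (42.5%), 36 of 154 of higher genes (23.4%) and 16.8% of all promoters. The other E-box searched, CAGCTG, was present in 10.3%, 15.6% and 12.2%, and the NR5A motif TCAAGGNCA in 1.15%, 1.30% and 1.09%. Promoters of lower genes held a median of 52.4% G and C against 61.6% for higher genes and 55.6% for all. A match is a count of letters and not evidence of binding. The promoters of 5 genes from above are shown as examples that hold the motif, at chr5:144190036-144190285 (Bhlha15, plus strand), chr2:164402944-164403193 (Rbpjl, plus), chr6:41458680-41458929 (Prss1, plus), chr1:93006084-93006333 (Aqp12, plus) and chr17:46729166-46729415 (Gnmt, minus). Each runs 5′ to 3′ on the gene's strand up to its start, and capitals mark CACCTG or its reverse complement.
Bhlha15: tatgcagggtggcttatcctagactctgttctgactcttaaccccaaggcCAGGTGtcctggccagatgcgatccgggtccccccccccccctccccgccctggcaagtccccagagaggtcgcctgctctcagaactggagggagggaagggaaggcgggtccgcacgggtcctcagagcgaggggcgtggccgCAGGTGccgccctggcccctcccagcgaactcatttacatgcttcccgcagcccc
Rbpjl: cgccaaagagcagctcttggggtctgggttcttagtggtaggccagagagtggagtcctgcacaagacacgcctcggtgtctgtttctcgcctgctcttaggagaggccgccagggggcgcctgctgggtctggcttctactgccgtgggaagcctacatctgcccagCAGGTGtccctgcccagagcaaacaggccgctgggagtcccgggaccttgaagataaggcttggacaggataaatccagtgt
Prss1: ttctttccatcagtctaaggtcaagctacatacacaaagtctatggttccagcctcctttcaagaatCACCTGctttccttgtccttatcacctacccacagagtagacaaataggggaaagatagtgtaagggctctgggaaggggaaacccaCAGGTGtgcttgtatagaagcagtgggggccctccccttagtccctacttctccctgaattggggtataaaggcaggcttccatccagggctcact
Aqp12: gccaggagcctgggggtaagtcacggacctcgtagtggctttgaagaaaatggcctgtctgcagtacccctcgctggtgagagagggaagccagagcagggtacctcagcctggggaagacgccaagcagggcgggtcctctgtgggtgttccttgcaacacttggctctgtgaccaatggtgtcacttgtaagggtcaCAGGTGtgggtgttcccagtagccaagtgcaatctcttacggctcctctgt
Gnmt: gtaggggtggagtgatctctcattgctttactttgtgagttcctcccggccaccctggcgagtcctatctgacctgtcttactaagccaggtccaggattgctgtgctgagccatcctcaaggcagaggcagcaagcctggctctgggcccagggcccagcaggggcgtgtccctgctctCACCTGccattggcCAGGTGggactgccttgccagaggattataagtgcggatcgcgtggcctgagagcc

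Aqp12, whose promoter is among these, is a water channel of acinar cells. It was at 10.33 to 11.92 on fresh, 4.33 to 5.77 on ADM and 3.78 to 4.15 on tumor arrays. Slc38a5, a transporter of glutamine and other small amino acids, was at 8.42 to 10.16 on fresh and 2.81 to 3.72 on cultured arrays, with ADM and tumor cells overlapping around background (difference -0.11, adjusted p = 0.879). Sostdc1, a secreted inhibitor of BMP and WNT signalling, was at 9.03 to 10.38 on fresh and 3.55 to 4.50 on cultured arrays. For Aqp12 the ADM arrays lay above the tumor arrays, all of them under every fresh array.

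Some lower genes belong to no list, and those named in this paragraph were chosen after their values were seen. Several act in methionine, creatine and branched-chain amino acid metabolism, as Gnmt does. Mat1a, which makes S-adenosylmethionine, had a mean of 9.02 ± 0.25 in adult, 7.29 ± 0.53 in embryonic, 4.27 ± 0.37 in ADM and 3.22 ± 0.18 in tumor cells (SD, n = 3). Gamt, the last enzyme of creatine synthesis, had means of 10.55 ± 0.12, 9.61 ± 0.21, 6.31 ± 0.53 and 6.22 ± 0.58 in the same order. Aldh6a1, Bckdhb and Pccb, which act in the mitochondrial breakdown of branched-chain amino acids, differed by -3.90 ± 0.31, -2.40 ± 0.11 and -2.20 ± 0.12. Of the tight junction proteins, Cldn8 differed by -3.50 ± 0.15 and Cldn10 by -3.17 ± 0.19. Of the zinc and monocarboxylate carriers, Slc39a5 differed by -5.01 ± 0.19 and Slc16a5 by -4.86 ± 0.24. Klk1, Klk1b5, Klk1b8 and Klk1b11 are close relatives on chromosome 7, and whether their probe sets read each other's transcripts was not tested.

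Among the genes higher in culture, EGF receptor ligands and the MAP kinase response had the largest share of any list with a gap in the values as deposited. The count was 8 of 26 members, with 22 called higher (7.71% of all genes were), 0 called lower and a median difference of 1.82. Ereg (epiregulin), a ligand of the EGF receptor family, read 4.12, 3.40 and 3.84 in adult, 3.84, 3.54 and 3.63 in embryonic, 9.03, 8.69 and 9.07 in ADM and 7.99, 8.26 and 7.90 in tumor cells. Both fresh kinds were near background, and the difference was 4.76 ± 0.14. Hbegf, a further ligand, was at 5.03 to 5.98 on fresh, 8.76 to 9.25 on ADM and 9.91 to 10.74 on tumor arrays. Tumor cells exceeded ADM by 1.24 for Hbegf (adjusted p = 0.00408), whereas Ereg was lower in tumor cells by 0.88 (adjusted p = 0.00706). The receptor Egfr itself had means of 6.28 ± 0.46 in adult, 6.11 ± 0.19 in embryonic, 9.30 ± 0.18 in ADM and 8.07 ± 0.20 in tumor cells (SD, n = 3).

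Further members of this list were also higher, and signalling itself was not measured. The immediate early genes Fos and Egr1, given below, were not called in either direction (differences -0.37 and -0.11). Ier3, an early response gene downstream of ERK, was at 6.64 to 7.18 on fresh and 10.63 to 11.42 on cultured arrays, and neither pair of kinds within a side differed by the test (adjusted p = 0.874 and 0.552). Lif, a cytokine of the interleukin-6 family, was at 4.03 to 4.72 on fresh and 6.92 to 8.16 on cultured arrays. Dusp4 and Dusp5, phosphatases that switch MAP kinases off, differed by 2.81 ± 0.20 and 2.31 ± 0.17, and Hmga2, a chromatin architectural protein, by 2.98 ± 0.16. ADM was dosed with TGF-alpha, an agonist of this receptor. In ADM cells the treatment and culture cannot be told apart. With cyclic loess, quantile normalization and housekeeping centring, 6, 6 and 7 of the 26 members had a gap. Under cyclic loess and quantile normalization this was no longer the largest share. Duct markers (8 of 28) and annexins and S100 proteins (6 of 21) had larger ones under both.

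Targets of YAP and TEAD were higher in a like share. 6 of 25 had a gap, 13 were called higher and 1 lower, and the same number, 6, had a gap under each of the 3 other scalings. Ankrd1, a nuclear cofactor and classical YAP target, read 3.51, 3.69 and 3.63 in adult, 4.09, 2.98 and 3.51 in embryonic, a mean of 9.22 ± 0.26 in ADM (SD, n = 3) and 10.44, 10.75 and 11.18 in tumor cells. The fresh arrays lay around background, and the difference of 6.44 ± 0.18 equals 86.6-fold. Ccn2 (CTGF), a secreted matrix-cell protein, was at 4.85 to 7.21 on fresh and 10.05 to 11.19 on cultured arrays. F3, tissue factor, was at 4.02 to 5.73 on fresh and 8.94 to 10.34 on cultured arrays, and Myof, a membrane repair protein, was at 3.52 to 6.41 and 8.81 to 9.62. Ccn1, the relative of Ccn2, was at 6.69 to 8.29 on fresh and 8.86 to 11.34 on cultured arrays, a gap of 0.57 that keeps it outside the rule. Tead4, one of the DNA-binding partners of YAP and chosen here after its values were seen, had a gap of 1.22 and a difference of 2.15 ± 0.14.

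The TEAD motif GGAATG was present in 20 of the 154 promoters of higher genes, 11 of the 87 of lower genes (12.6%) and 11.7% of all, and the AP-1 motif TGANTCA in 8.44%, 4.60% and 6.47%. These shares lie close to that of all promoters, and 250 bases leave out distal sites. The promoters of Ankrd1 (chr19:36119845-36120094, minus strand) and Plaur (chr7:24462233-24462482, plus strand) are shown because both genes are among the 12 with the largest gap and hold 1 of these motifs, in capitals: GGAATG in Ankrd1 and the AP-1 motif in Plaur.
Ankrd1: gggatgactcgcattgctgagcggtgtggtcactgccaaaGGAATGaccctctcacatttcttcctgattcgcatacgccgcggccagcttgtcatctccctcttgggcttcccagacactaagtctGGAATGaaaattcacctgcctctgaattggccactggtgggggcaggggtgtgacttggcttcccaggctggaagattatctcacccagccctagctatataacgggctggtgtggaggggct
Plaur: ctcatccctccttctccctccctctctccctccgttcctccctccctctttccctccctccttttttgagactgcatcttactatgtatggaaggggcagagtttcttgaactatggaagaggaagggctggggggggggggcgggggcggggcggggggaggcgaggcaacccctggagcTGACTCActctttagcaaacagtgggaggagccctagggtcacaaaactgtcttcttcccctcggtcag

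Plaur is the urokinase receptor, which focuses plasmin formation at the cell surface. It read 4.34, 4.11 and 4.03 in adult, 5.52, 5.24 and 4.90 in embryonic, 9.59, 9.75 and 9.26 in ADM and 10.45, 10.40 and 10.65 in tumor cells, a difference of 5.33 ± 0.13. It is in the list of mesenchymal and matrix genes, where 3 of 25 members had a gap and 12 were called higher. The others with a gap were Timp1, a metalloproteinase inhibitor, at 3.66 to 6.38 on fresh and 7.97 to 11.24 on cultured arrays, and Inhba, the activin A subunit, at 2.76 to 4.85 and 6.63 to 9.58. Vim (vimentin), the intermediate filament used to mark mesenchymal cells, had no gap: the embryonic mean of 11.18 ± 0.16 (SD, n = 3) lay above the ADM arrays at 9.82 to 10.68. Fbln2, a basement membrane protein, was the only one of 24 fibroblast and stellate markers higher with a gap. Of these 24, 1 was called higher and 15 lower in culture, with a median difference of -1.3. That list's summed signal, in log2, was 10.95 to 11.13 on adult, 13.37 to 14.09 on embryonic, 12.73 to 13.61 on ADM and 9.94 to 10.39 on tumor arrays, and 12 of 24 members were at or under background in tumor cells. The part of fibroblasts in the ADM and embryonic values was not tested, and in bulk RNA fewer cells of a type and less RNA per cell cannot be told apart.

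Adhesion receptors of the matrix were among the widest gaps. Of 21 integrins and laminins, 4 had a gap and 12 were called higher. Itga2, the collagen-binding integrin subunit, read 3.26, 4.49 and 3.59 in adult, 5.89, 6.14 and 6.12 in embryonic, 10.23, 10.77 and 10.23 in ADM and 10.51, 10.49 and 10.70 in tumor cells. ADM cells lay in collagen and tumor cells in standard medium, and the cultured kinds did not differ by the test (0.16, adjusted p = 0.809). Itga3, a laminin-binding subunit, was at 5.02 to 5.66 on fresh and 9.19 to 9.88 on cultured arrays, with adult and embryonic cells alike in range. Lama5, a laminin chain, differed by 2.35 ± 0.14, and Itgav, a vitronectin-binding subunit, by 2.31 ± 0.18, with a gap of 1.00 that was lost under each of the 3 other scalings.

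The actin cytoskeleton was higher broadly and by smaller steps. 6 of 41 genes had a gap, 22 were called higher and 24 had all cultured arrays above all fresh arrays (8.09% of all genes did). Actn1, an actin crosslinker of focal adhesions, was at 7.50 to 8.53 on fresh and 9.87 to 10.74 on cultured arrays. Fhl2, a LIM-domain adaptor, was at 4.82 to 6.24 and 8.04 to 9.14. Ezr (ezrin) and Myh9 (non-muscle myosin) differed by 2.81 ± 0.17 and 2.21 ± 0.14, and Vcl (vinculin) by 2.63 ± 0.14. The list's median was 6.09 to 6.71 on adult, 7.84 to 8.10 on embryonic, 8.82 to 9.03 on ADM and 8.86 to 9.32 on tumor arrays, so that embryonic cells lay between. With cyclic loess, 2 of the 41 had a gap, and Ezr and Myh9 were not among them.

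Duct markers split between the cultured kinds. 7 of 28 had a gap and were higher, yet 14 were called higher and 7 lower, and 13 were called lower in tumor than in ADM cells. The list's median was 5.98 to 6.05 on adult, 6.625 to 7.215 on embryonic, 8.35 to 8.92 on ADM and 6.215 to 6.67 on tumor arrays. The genes named below were all higher in culture, and those called lower are not among them. Krt19, a keratin of ductal epithelium, read 6.91, 6.85 and 7.01 in adult, 7.86, 7.65 and 7.96 in embryonic, 10.01, 10.32 and 10.04 in ADM and 10.32, 10.48 and 10.31 in tumor cells, a difference of 2.87 ± 0.10. Krt7 was at 5.74 to 7.77 on fresh and 9.57 to 10.34 on cultured arrays, and Krt8, which acinar cells also make, differed by 1.74 ± 0.11. Tspan8, a tetraspanin of epithelial tumors, was at 3.11 to 7.77 on fresh and 10.27 to 10.85 on cultured arrays, with embryonic above adult cells by 3.33 (adjusted p = 4.55e-06). Slc4a4, the duct's bicarbonate cotransporter, differed by 2.69 ± 0.27, and Cd44, a hyaluronan receptor, by 3.25 ± 0.17.

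Gastric and squamous genes were higher in part: 6 of 29 had a gap and 11 were called higher. Tff1, a trefoil peptide of gastric pit cells, read 4.55, 4.44 and 3.97 in adult, 3.73, 3.19 and 3.26 in embryonic, 11.80, 11.69 and 10.67 in ADM and 9.68, 9.71 and 8.70 in tumor cells. It was lower in tumor than in ADM cells by 2.02 (adjusted p = 0.000778). Ctse (cathepsin E), an aspartic protease of gastric epithelium, was at 3.29 to 4.97 on fresh, 11.48 to 11.62 on ADM and 8.75 to 10.59 on tumor arrays. Gcnt3, a mucin-type glycosyltransferase, was at 3.58 to 4.77 on fresh and 7.93 to 10.36 on cultured arrays. Sprr1a, a cornified envelope protein, was at 3.66 to 3.90 in adult, 6.93 to 7.47 in embryonic and 10.69 to 11.81 on cultured arrays. Anxa10, an annexin of gastric epithelium, was at 2.87 to 4.35 on fresh, 8.45 to 9.38 on ADM and 6.37 to 8.20 on tumor arrays.

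Annexins and S100 proteins, which bind calcium and membranes, had 6 of 21 members with a gap and 14 called higher, with a median difference of 1.86. 9 of the 21 were called lower in adult than in embryonic cells, against 9.99% of all genes. Anxa3 read 3.43, 3.63 and 5.16 in adult against 8.07, 7.28 and 7.96 in embryonic cells, and was at 10.46 to 11.29 on cultured arrays. Anxa1, an anti-inflammatory annexin, was at 4.90 to 5.09 in adult, 7.78 to 8.91 in embryonic and 10.03 to 11.31 on cultured arrays. Adult cells were lower than embryonic by 3.70 for Anxa3 and by 3.34 for Anxa1 (adjusted p = 6.42e-06 and 6.87e-07). S100a4, a motility-linked S100 protein, was at 4.38 to 5.51 in adult, 7.92 to 8.24 in embryonic and 9.65 to 10.92 on cultured arrays. S100a11 was bright everywhere, with means of 10.12 ± 0.20 in adult, 11.57 ± 0.03 in embryonic, 12.83 ± 0.11 in ADM and 12.89 ± 0.10 in tumor cells (SD, n = 3).

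Ptgs2, the inducible cyclooxygenase of prostaglandin synthesis, had the largest gap of the higher genes. It read 3.14, 3.70 and 3.77 in adult, 3.52, 3.82 and 3.43 in embryonic, 11.28, 11.37 and 11.24 in ADM and 9.07, 9.78 and 9.83 in tumor cells, a difference of 6.87 ± 0.16 or 117-fold. ADM exceeded tumor cells by 1.74 (adjusted p = 0.000116), and the fresh kinds lay around background together. In the list of injury cytokines and prostaglandin genes, 4 of 29 had a gap and 17 were called higher. Cxcl5, a neutrophil chemokine, read 3.49 to 3.77 on fresh, 6.65 to 7.14 on ADM and 9.31, 11.20 and 11.42 on tumor arrays, with tumor above ADM by 3.70 (adjusted p = 2.52e-05). Tnfrsf12a, the receptor of TWEAK, was at 3.75 to 6.14 on fresh and 9.43 to 9.88 on cultured arrays, and Cxcl16 at 4.62 to 5.60 and 8.16 to 9.26. Upstream in the same pathway, Pla2g4a, the phospholipase that frees arachidonic acid and a gene chosen after its values were seen, differed by 3.98 ± 0.11.

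Other surface proteins with wide gaps were Gprc5a, Msln and Tnfrsf23. Gprc5a, a retinoic acid-inducible receptor, was at 2.91 to 4.30 on fresh and 8.72 to 9.59 on cultured arrays. Msln (mesothelin) was at 4.14 to 4.23 in adult, 5.58 to 6.71 in embryonic and 10.33 to 10.66 on cultured arrays, where ADM and tumor cells overlapped (difference -0.01, adjusted p = 0.992). Msln and Krt19 were the only 2 of 11 mesothelial markers with a gap. 5 of the 11 were called lower in culture, 5 were at or under background in ADM and 5 in tumor cells, and the list's summed signal in log2 was 8.27 to 8.45 on adult, 9.97 to 10.69 on embryonic, 11.28 to 11.57 on ADM and 11.41 to 11.61 on tumor arrays. A sum follows its brightest members. The list's median was 3.51 to 4.22 on adult, 5.63 to 6.71 on embryonic, 3.65 to 4.42 on ADM and 3.53 to 3.75 on tumor arrays. Tnfrsf23, a decoy-type receptor of the TNF family, was at 2.84 to 4.70 on fresh and 8.05 to 9.78 on cultured arrays. Its close relative Tnfrsf22, also on chromosome 7 and chosen after its values were seen, differed by 2.68 ± 0.25, and cross-hybridisation between them was not tested.

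Of 24 genes of the NRF2 antioxidant response, 6 had a gap and 13 were called higher. Akr1b8, an aldo-keto reductase, was at 2.63 to 3.76 on fresh and 6.76 to 7.61 on cultured arrays. Me1 (malic enzyme, a source of NADPH) was at 3.23 to 4.24 in adult, 6.39 to 6.70 in embryonic and 8.84 to 9.62 on cultured arrays, and Gsta4, a glutathione transferase, was at 5.11 to 5.64, 8.16 to 8.75 and 10.04 to 11.20. Nfe2l2, which encodes NRF2, differed by 2.04 ± 0.10, with means of 8.05 ± 0.13 in adult, 9.27 ± 0.11 in embryonic, 10.75 ± 0.10 in ADM and 10.65 ± 0.14 in tumor cells (SD, n = 3). Gclc and Txnrd1, of glutathione and thioredoxin metabolism, differed by 2.58 ± 0.17 and 1.86 ± 0.14. The count with a gap was 4 of 24 after quantile normalization, 3 after cyclic loess and 4 with housekeeping centring, and Gclc was lost each time.

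The lists of this paragraph each had only 1 or 2 genes with a gap, all higher, against 0.911% of all genes. Such counts are not read as a result about the list. Hspa4l was the only one of 13 heat shock genes with a gap, at 5.39 to 6.17 on fresh and 8.28 to 8.65 on cultured arrays. Pkm, pyruvate kinase, was the only one of 28 glycolysis and hypoxia genes, at 8.64 to 9.49 and 10.98 to 11.43, although 15 of that list were called higher. Bhlhe41, a clock repressor, was the only one of 16 clock genes, at 2.99 to 3.88 and 5.57 to 7.12. Mdm2 and Tnfrsf10b, both p53 targets, were the 2 of 21 CDK inhibitor and p53 genes, with differences of 1.80 ± 0.12 and 3.28 ± 0.14. Npc1 was the only one of 27 lysosome genes, and its gap of 1.24, like that of Mdm2 (1.23), was lost under all 3 other scalings. Cd14, the lipopolysaccharide coreceptor, was the only one of 28 leukocyte markers, at 4.12 to 4.82 on fresh, 7.64 to 8.43 on ADM and 9.37 to 9.93 on tumor arrays. The leukocyte list went the other way from Cd14: 1 of the 28 was called higher and 14 lower in culture, with a median difference of -0.904. In tumor cells 19 of the 28 leukocyte markers were at or under background, and 14 in ADM. The list's median was 3.30 to 3.81 on cultured, 3.78 to 3.99 on adult and 4.705 to 5.355 on embryonic arrays.

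**Figure D3:**
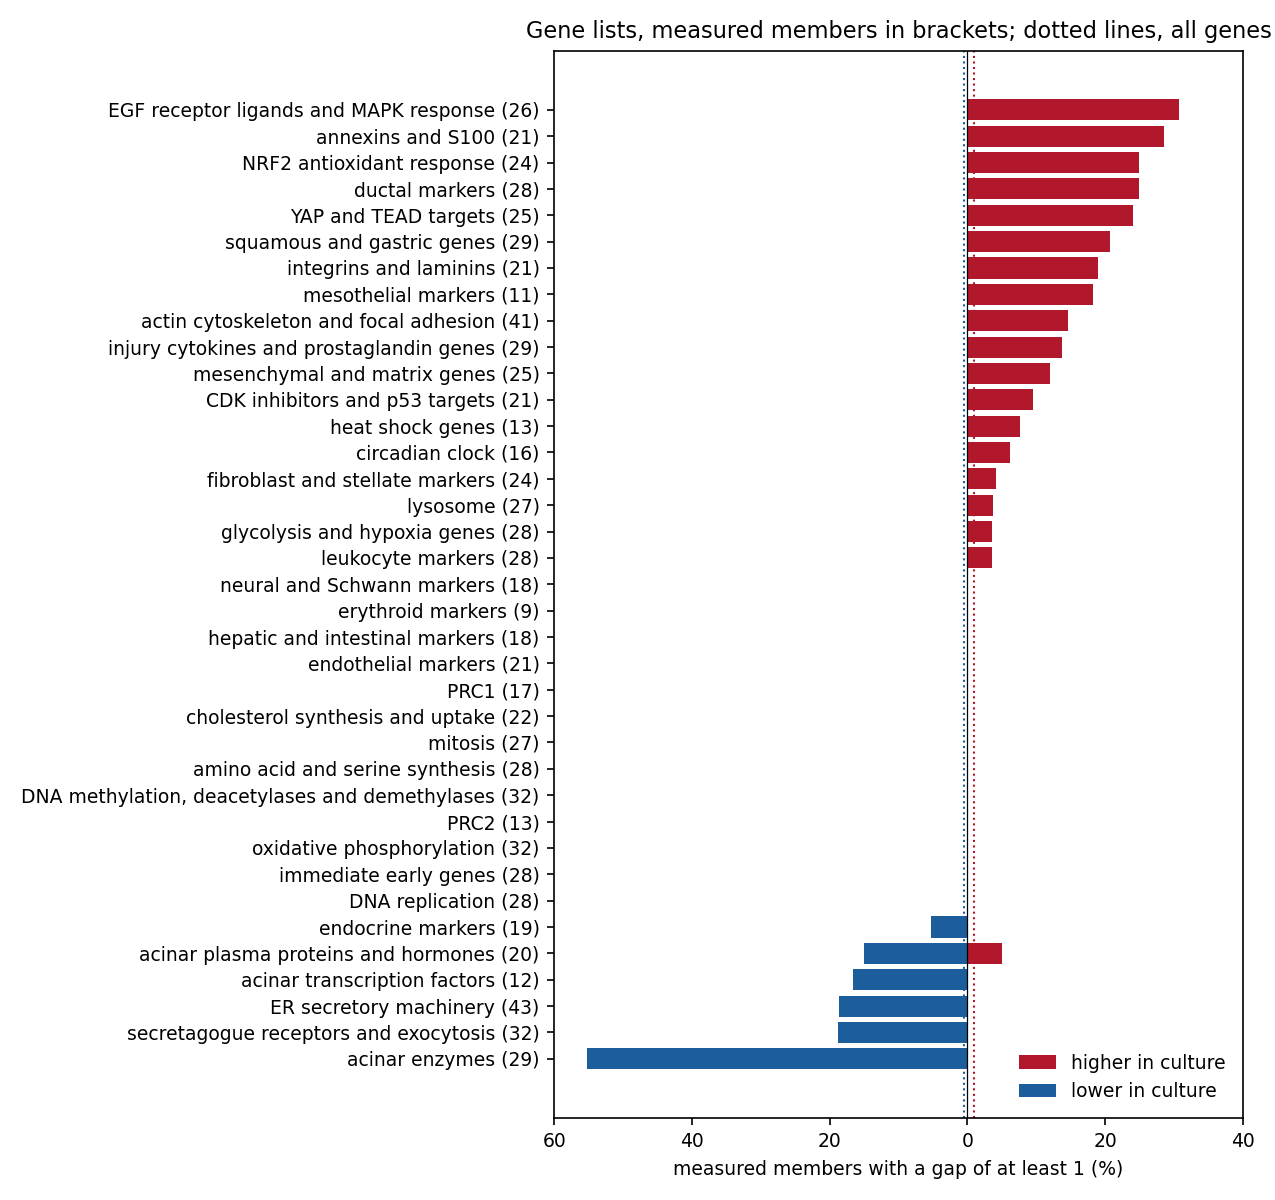
Share of each list's measured members with a gap of at least 1, higher in culture (red, right) or lower (blue, left), with the number measured in brackets and the share among all genes as dotted lines, and with the sex-linked and housekeeping genes left out. The acinar enzymes reach 55.2% on the left and the EGF receptor and MAP kinase list 30.8% on the right, while 13 of the lists drawn have no bar.

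Cell division genes were called higher in culture without separating the sides array by array. All 27 mitosis genes and 24 of 28 DNA replication genes were called higher in culture, with median differences of 1.94 and 1.51, yet 0 genes of either list had a gap. Since 0.911% of all genes were higher and 0.496% lower with a gap, a count of 0 in a list of this size, here and in the lists below, is near the share of all genes. Embryonic arrays were high as well: the mitosis list's median was 7.05 to 7.23 on embryonic arrays, above the 6.32 to 6.88 of ADM and far above the 4.07 to 4.29 of adult cells, with tumor cells at 7.61 to 9.13. Mki67, the proliferation marker, read 4.74 to 5.41 in adult, 7.93 to 8.31 in embryonic, 6.47 to 7.40 in ADM and 7.98 to 9.27 in tumor cells. All 27 mitosis genes were called higher in tumor than in ADM cells and lower in adult than in embryonic cells.

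Immediate early genes, which respond within minutes to cell handling, also had 0 of 28 members with a gap, 7 called higher, 1 lower and a median difference of -0.04. Fos read 7.57, 7.12 and 7.10 in adult, 6.92, 6.58 and 5.96 in embryonic, 7.15, 7.48 and 7.32 in ADM and 8.18, 4.39 and 4.49 in tumor cells. Egr1 read 9.16, 9.20 and 9.27 in adult, 8.91, 9.12 and 8.44 in embryonic, 9.30, 9.35 and 9.18 in ADM and 11.02, 7.45 and 7.15 in tumor cells. Tumor replicate 1 stood apart from the other 2 in both genes, and the sides did not differ by the test for Fos (-0.37 ± 0.51, adjusted p = 0.616) or Egr1 (-0.11 ± 0.50, adjusted p = 0.893). Without that array the differences were -0.997 (adjusted p = 0.00041) and -0.728 (adjusted p = 0.000683). The same array was the highest tumor array for Angptl4, Inhba and Tnfrsf23. Without it 218 higher and 117 lower genes had a gap, and leaving out an array can only keep or raise these counts.

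For chromatin regulators, which the study's title concerns, the counts with a gap were near the share of all genes (0.911% higher and 0.496% lower). A gap was present in 0 of 17 PRC1 genes, 0 of 13 PRC2 genes and 0 of 32 genes for DNA methylation, deacetylases and demethylases. All cultured arrays lay above all fresh arrays for 4, 3 and 2 of them (8.09% of all genes) and under them for 0, 0 and 0 (4.32%). Limma called 3, 1 and 6 of them higher and 0, 0 and 1 lower, against 7.71% and 4.86% of all genes. Ezh2, the PRC2 methyltransferase, read 4.72 to 5.79 in adult, 7.58 to 7.79 in embryonic, 7.81 to 8.16 in ADM and 9.18 to 9.62 in tumor cells. Its gap was 0.02, since embryonic and ADM arrays adjoin. Rnf2 (Ring1b), the PRC1 ubiquitin ligase, was at 6.38 to 6.92 in adult, 7.61 to 8.07 in embryonic, 7.79 to 7.93 in ADM and 7.57 to 7.67 in tumor cells, with adult under embryonic cells by 1.25 (adjusted p = 0.000108). Lists for oxidative phosphorylation (32 genes), cholesterol synthesis and uptake (22) and amino acid and serine synthesis (28) also had 0 genes with a gap.

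Endothelial and endocrine markers were highest on the embryonic arrays. Of 21 endothelial markers 15 were called lower in culture and 0 had a gap, and the median was 4.76 to 5.41 on adult, 6.51 to 6.61 on embryonic, 4.74 to 4.95 on ADM and 3.75 to 3.82 on tumor arrays, where 9 of 21 were at or under background. Of 19 endocrine markers 15 were called lower and 1, Sst (somatostatin), had a gap: it was at 7.95 to 8.52 in adult, 10.87 to 11.23 in embryonic, 5.14 to 5.65 in ADM and 3.90 to 5.09 in tumor cells. The endocrine list's summed signal in log2 was 11.09 to 11.62 on adult, 13.40 to 13.72 on embryonic, 10.31 to 11.14 on ADM and 8.57 to 8.77 on tumor arrays. The part of endocrine or endothelial cells in the fresh values was not tested. Lists of neural, erythroid and hepatic or intestinal markers (18, 9 and 18 genes) had 0 genes with a gap.

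**Figure D4:**
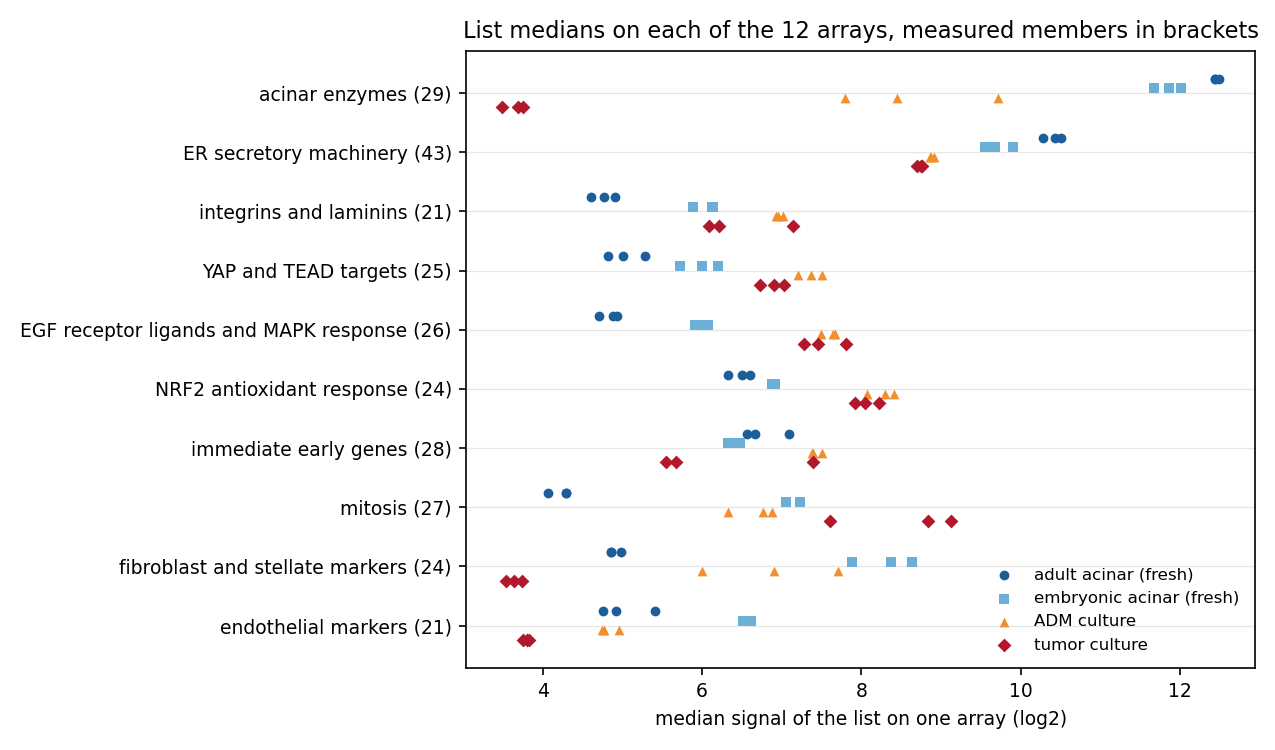
Median log2 signal of 10 gene lists on each of the 12 arrays, coloured by group, with the number of measured members in brackets. The acinar enzyme medians run from 3.49 on a tumor array to 12.49 on an adult array, the EGF receptor list separates cultured from fresh arrays, and for mitosis the embryonic arrays (7.05 to 7.23) lie above the ADM arrays (6.32 to 6.88).

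The genes with a gap were next compared within each side, a contrast that the rule did not use, although it favours genes that vary little within a side. Of the 202 higher genes, 26 were called higher and 12 lower in tumor than in ADM cells, together 18.8%, against 8.34% of all genes, of which 3.28% were higher and 5.06% lower. Of the 110 lower genes, 0 were called higher and 42 lower in tumor cells (38.2%). By group means, the ADM group was the nearer to the fresh cells for 89 of the 110 lower genes and for 122 of the 202 higher genes. The like share over all genes was not counted, so these counts are not read as particular to the genes with a gap. The 4 genes with a gap that rose most from ADM to tumor cells were Mcpt8 and Mcpt2, proteases known from basophils and mast cells, Cxcl5 and the unnamed transcript 4930461G14Rik. Mcpt8 read 3.53 to 3.89 on fresh, 5.04 to 5.54 on ADM and 9.40 to 9.90 on tumor arrays (tumor minus ADM 4.39, adjusted p = 3.56e-09), and lost its gap under cyclic loess and housekeeping centring. Mcpt2 read 2.46 to 3.11 on fresh, 4.40 to 5.24 on ADM and 7.95 to 8.84 on tumor arrays. With all 6 fresh Mcpt2 arrays at or under background, its level was at least 7.67-fold higher in culture, counted from the background level, but with values raised to that level its gap was under 1.

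On the fresh side, 1 of the 202 higher genes was called higher and 57 lower in adult than in embryonic cells (28.7% in all, against 12.6% of all genes, of which 2.61% were higher and 9.99% lower), and of the 110 lower genes 44 were called higher and 5 lower (44.5%). Embryonic cells were the nearer to the cultured cells for 160 higher genes (79.2%) and 92 lower genes (83.6%). Over all genes, by the sign of the difference, the share was 67.3%. The split of these calls depends on the scaling of the arrays: 20.7% of the adult-minus-embryonic calls over all genes were higher in adult cells as deposited, 42.7% after quantile normalization, 34.5% after cyclic loess and 58.1% after housekeeping centring, which moved the median of all genes from 0.09 to 0.45. Under those scalings 43, 43 and 38 of the higher genes were lower in adult cells, and 49, 57 and 69 of the lower genes were higher in adult cells.

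F2r, the thrombin receptor, had the largest such step among the higher genes: it was at 3.90 to 4.78 in adult, 8.13 to 8.48 in embryonic and 9.91 to 10.84 on cultured arrays (adult minus embryonic -4.04, adjusted p = 2.55e-08). Among the lower genes, Aass, an enzyme of lysine breakdown, and Cela3a, an elastase, showed it. Aass was at 8.09 to 8.30 in adult, 4.54 to 5.69 in embryonic and 3.24 to 3.54 on cultured arrays. Cela3a had a mean of 8.51 ± 0.49 in adult cells (SD, n = 3) and was at 5.13 to 5.51 in embryonic cells and 2.70 to 3.45 on cultured arrays, with adult above embryonic cells by 3.21 for both (adjusted p = 7.58e-07 for Aass and 1.13e-06 for Cela3a). All cultured arrays of both genes were at or under background, so the fresh level was at least 7.69-fold higher for Aass and at least 9.78-fold higher for Cela3a. The gap of Aass was lost under quantile normalization, under housekeeping centring and with values under background raised to it.

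**Figure D5:**
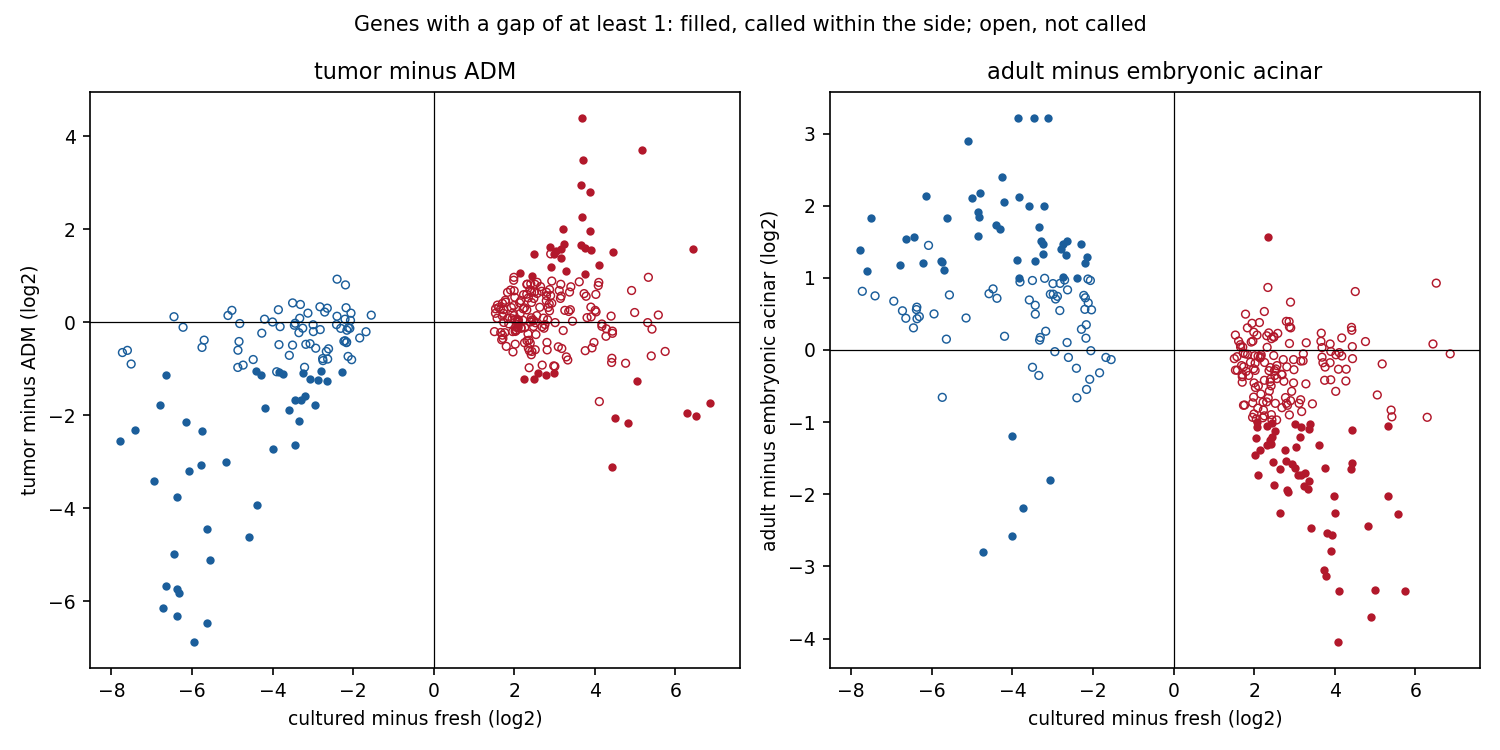
Genes with a gap of at least 1, placed by their cultured-minus-fresh difference (x) and by a difference within a side (y): tumor minus ADM on the left, adult minus embryonic on the right, in log2. Filled points are called by limma (26 and 12 of the 202 higher genes and 42 of the 110 lower genes on the left), and the lower genes called on the left all lie under 0.

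112 of the 202 higher and 33 of the 110 lower genes were called in neither contrast, which does not show that the kinds of a side are alike. For Ier3, Itga3 and Hspa4l among the higher genes and Rab27a among the lower ones, neither difference reached an adjusted p under 0.05. Reep5, an ER-shaping protein kept in the housekeeping list, was at 11.29 to 11.76 on fresh and 9.49 to 10.01 on cultured arrays, the only one of 13 housekeeping genes with a gap. Transcription factors outside the lists, chosen after their values were seen, were also higher with a gap. Runx1 had means of 4.52 ± 0.23 in adult, 4.60 ± 0.18 in embryonic, 6.79 ± 0.17 in ADM and 7.30 ± 0.48 in tumor cells (SD, n = 3), Foxq1 differed by 4.42 ± 0.22 and Klf5 by 2.80 ± 0.14. The drug and anion exporters Abcc3 and Abcc4, chosen likewise, differed by 3.21 ± 0.15 and 3.44 ± 0.15.

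Across all genes the limma fit called 1709 higher and 1078 lower in culture, 61.3% of the calls higher. That split was 50.6% after quantile normalization, 44.2% after cyclic loess and 52.9% after housekeeping centring, which moved the median difference of all genes from -0.04 to -0.16. Of the 202 higher genes 146, 128 and 150 kept a gap of at least 1 under these scalings, and of the 110 lower genes 99, 109 and 90 did.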

How the data were processed

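Total RNA of 12 samples was hybridised to Affymetrix arrays. The authors deposited log2 signal per probe set; the log base was inferred from the range of values, 1.56 to 13.67, and software and normalization are not given in the sources used here. The number of arrays, 3 per group, limits precision. Of 41345 probe sets, 23521 carried 1 symbol, 1814 several and 16010 none in the platform annotation. The brightest probe set stood for each of the 1082 genes with several, giving 22180 genes, and cross-hybridisation was not tested. A 4-group limma 3.58.1 fit (R 4.3.3; lmFit, contrasts.fit, eBayes; 8 residual and 5.02 prior degrees of freedom; two-sided) gave cultured minus fresh, tumor minus ADM and adult minus embryonic, with Benjamini-Hochberg adjustment over all genes. It was tested on simulated data.

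Background is the 95th percentile of group means of olfactory, vomeronasal and trace-amine receptor genes. 39 lists (890 of 977 genes measured) were written from general knowledge, and lists and comparison were chosen with earlier results of these data known. Named genes are a fixed set, the 12 largest gaps per direction (unnamed transcripts left out) and up to 4 per list and direction. They also include the 4 largest called differences within a side per direction and 2 of the genes nearest the gap of 1 on each side of it. Checks over the named genes cover these 102 only. The text gives further genes outside this set, some of them marked as chosen after their values were seen. The alternatives were 3 scalings, the mean of probe sets, a floor at background, leaving out dim genes, other gaps, a replicate block, array weights, a trended robust prior, 2 sides in place of 4 groups, group means and leaving out each array.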

Additional observations from a re-analysis of the deposited data

Results flagged for a closer look

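Within a side of 6 arrays, 9 of 204 sets of values of the named genes had 1 array far from the others, where chance alone flags about 1 in 20. These arrays were ADM replicate 2 for Gprc5a (9.59, next 9.03), adult replicate 1 for Lif (4.72, next 4.28) and Rab27a (7.81, next 7.10), adult replicate 3 for Hspa4l (5.39, next 5.98) and Npc1 (4.99, next 5.59), tumor replicate 1 for Me1 (9.62, next 9.07) and Map3k2 (7.92, next 6.91), tumor replicate 3 for Reep5 (9.49, next 9.82) and embryonic replicate 3 for Fkbp11 (10.87, next 11.36).

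The kinds within a side differed by the limma test for some genes with a gap. Tumor and ADM cells differed for 38 of the 202 higher and 42 of the 110 lower genes, and adult and embryonic cells for 58 of the higher and 49 of the lower genes.

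Probe sets outside the gene table also separated by at least 1. Of 16010 without a symbol, 25 were higher and 16 lower in culture, and of 1814 with several symbols, 11 were higher and 10 lower.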

How the results depend on the processing

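With a gap of at least 0.5, 485 genes were higher and 268 lower, and with at least 2, 49 and 43. Cyclic loess left 129 higher genes with a gap and 1077 called higher in culture, and the 4 group means gave 0 called higher and 0 lower. Adult-minus-embryonic calls depended on scaling: 578 genes were higher in adult cells as deposited, 1920 after centring on housekeeping genes, 876 after cyclic loess and 1188 after quantile normalization, and 1386 were lower under housekeeping centring (2215 as deposited). The cause was not tested. Leaving out 1 array, which can only keep or widen a gap, gave 207 to 227 higher and 110 to 134 lower genes with a gap. It gave 1669 to 1788 and 1053 to 1116 calls for culture, 604 to 1031 and 1015 to 1311 for tumor against ADM, and 497 to 659 and 2052 to 2281 for adult against embryonic. The 1031 came without tumor replicate 1. Egr1 turned from -0.11 (-0.728 without tumor replicate 1) to 0.164 and 0.239 without tumor replicates 2 and 3, neither past the test (adjusted p = 0.839 and 0.737). Under the group means 99 of the named genes lost their call. Same-numbered arrays did not visibly deviate together (18 correlations, -0.048 to 0.128, 1 over 0.1). The 36 correlations of differently numbered arrays ran from -0.122 to 0.11. Values near 0 cannot exclude that same-numbered samples were paired. A replicate block gave 1708 and 1080 calls for culture, 713 and 1116 for tumor against ADM and 580 and 2215 for adult against embryonic.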
